A study of Mus musculus with 17 samples.

Results

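The genes described here carry a transcript that was high in pachytene/diplotene spermatocytes of the mouse testis and low in the germ cells sorted before and after them. They were chosen by level: a mean of at least 10 RPKM (reads per kilobase of exon, scaled to the depth of the library in M, mega, reads) in pachytene/diplotene cells, and at least 4 times the mean of each of the other 4 stages. The rule was met by 50 of the 24594 genes in the table (0.203%), among 3962 genes that reached 10 RPKM in pachytene/diplotene cells and 1709 of those that were highest there. The levels in pachytene/diplotene cells and their ratios to other stages chose the genes, so these are given below as a description with no test.

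RNA was sequenced from testis cells of wild-type C57BL/6JRj males aged 3 months. Cells stained with Hoechst 33342 and SYTO 16 were sorted by flow cytometry into 5 stages, each with 3 libraries. In order of development these are LZ (leptotene/zygotene spermatocytes), PD (pachytene/diplotene spermatocytes), RS (round spermatids), EES (elongating spermatids, early) and LES (elongating spermatids, late). A single library of round spermatids (RS23) and another of elongating spermatids (PrmES) came from cells stained with the Hoechst dye but not with SYTO. The title of RS23 says juvenile, 23 days post partum, and that of PrmES says sorted by Prm1-EGFP, a reporter on a protamine gene, while their other labels give an age of 3 months and a wild-type genotype as for the rest. The PD gate holds pachytene and diplotene cells together, so a transcript of either cannot be told apart. The labels do not tie the libraries of a stage to separate animals; the p-values then reflect only how far these samples spread, and that spread may be technical. In bulk samples, fewer cells of a type and less RNA per cell cannot be told apart.

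Pachytene is the long stage of the first meiotic prophase in which paired homologous chromosomes are held together by the synaptonemal complex and recombination is completed. Spermatocytes at this stage transcribe their autosomes strongly, with the transcription factor A-MYB (Mybl1) among the known drivers, and make large amounts of small RNAs that bind the Piwi protein MIWI, while the X and Y chromosomes are silenced in the sex body. Many of the transcripts made then are stored and translated in spermatids.

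Of the 50 genes, 27 are protein-coding, 14 are long non-coding RNAs (lncRNAs), 7 are microRNA hairpins and 2 are transcribed pseudogenes in the RefSeq annotation. Genes that do not code for protein made up 46.0% of them, against 11.7% of 13248 tested genes and 6.97% of 3960 genes at 10 RPKM or more in PD that have a RefSeq type. The 7 hairpins are Mir7221, Mir7222, Mir7230, Mir7232, Mir468, Mir7233 and Mir7234. The lengths behind their values, 52 to 78 bases, are those of the hairpins, so a level counts reads over the hairpin locus and not the mature microRNA. RefSeq (GRCm38.p6) lists 12 mature sequences for them, and their 12 seeds are all different. The mature sequences of Mir7232, the most abundant hairpin, and of Mir7221, Mir7222 and Mir7230, which take part in the stage comparisons below, are shown 5′ to 3′ with the seed (bases 2 to 8) in capitals.
miR-7232-5p: uACAUGGAugauuguuuuuccaag
miR-7232-3p: uGGUUGAAuucgacuuuggggc
miR-7221-5p: cGUCUCUUggucacagguggg
miR-7221-3p: uGACUGUGggcuggggacugg
miR-7222-5p: gGCACUUGccaggcucugagcuggacu
miR-7222-3p: uCCAGGACagugggcaggagcag
miR-7230-5p: aGACUGCUguuucucugaguggc
miR-7230-3p: uUGAGUUGagacugucaguaggu

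Libraries of the 5 stages held 90.6 to 137.8 M reads, of which 48.4% to 87.7% fell in genes of the table. The 5 LZ markers summed to 30.3 to 34.1 RPKM in PD, against 161 to 229 RPKM in LZ. Most of the PD sum was Spo11, at 28.3 RPKM in PD and 23.6 RPKM in LZ, while Dmc1 averaged 0.115 RPKM in PD and 61.6 RPKM in LZ and Stra8 0.0504 RPKM in PD and 13.5 RPKM in LZ. The 5 round spermatid markers summed to 6.73 to 12.8 RPKM in PD, against 193 to 204 RPKM in RS. The 5 markers set for PD (Piwil1, Ccna1, Hspa2, Mybl1 and Tbpl1) did not separate it from RS, with sums of 979 to 1071 RPKM in PD and 1055 to 1193 RPKM in RS, and of these Piwil1 is itself among the 50 genes. Markers of Sertoli cells, the somatic nurse cells, summed to 0.951 to 1.12 RPKM in PD, against 47.5 to 81.7 RPKM in LZ. LZ replicate 3 stood apart, with 497 RPKM of the PD markers, against 174 and 160 RPKM in LZ replicates 1 and 2. EES replicate 2 also stood apart, with 561 RPKM of the round spermatid markers, against 84.7 and 120 RPKM in EES replicates 1 and 3.

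Together the 50 genes held 0.739%, 0.734% and 0.699% of all reads in the 3 PD libraries. They held 0.0583% and 0.0641% in LZ replicates 1 and 2, 0.256% in LZ replicate 3, and 0.0693% to 0.0821% in RS. In elongating spermatids the share was 0.0184% to 0.0315% in EES and 0.0252% to 0.0429% in LES. The share in PD was therefore above that in every library of the other stages, and LZ replicate 3 came closest to it.

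**Figure D1:**
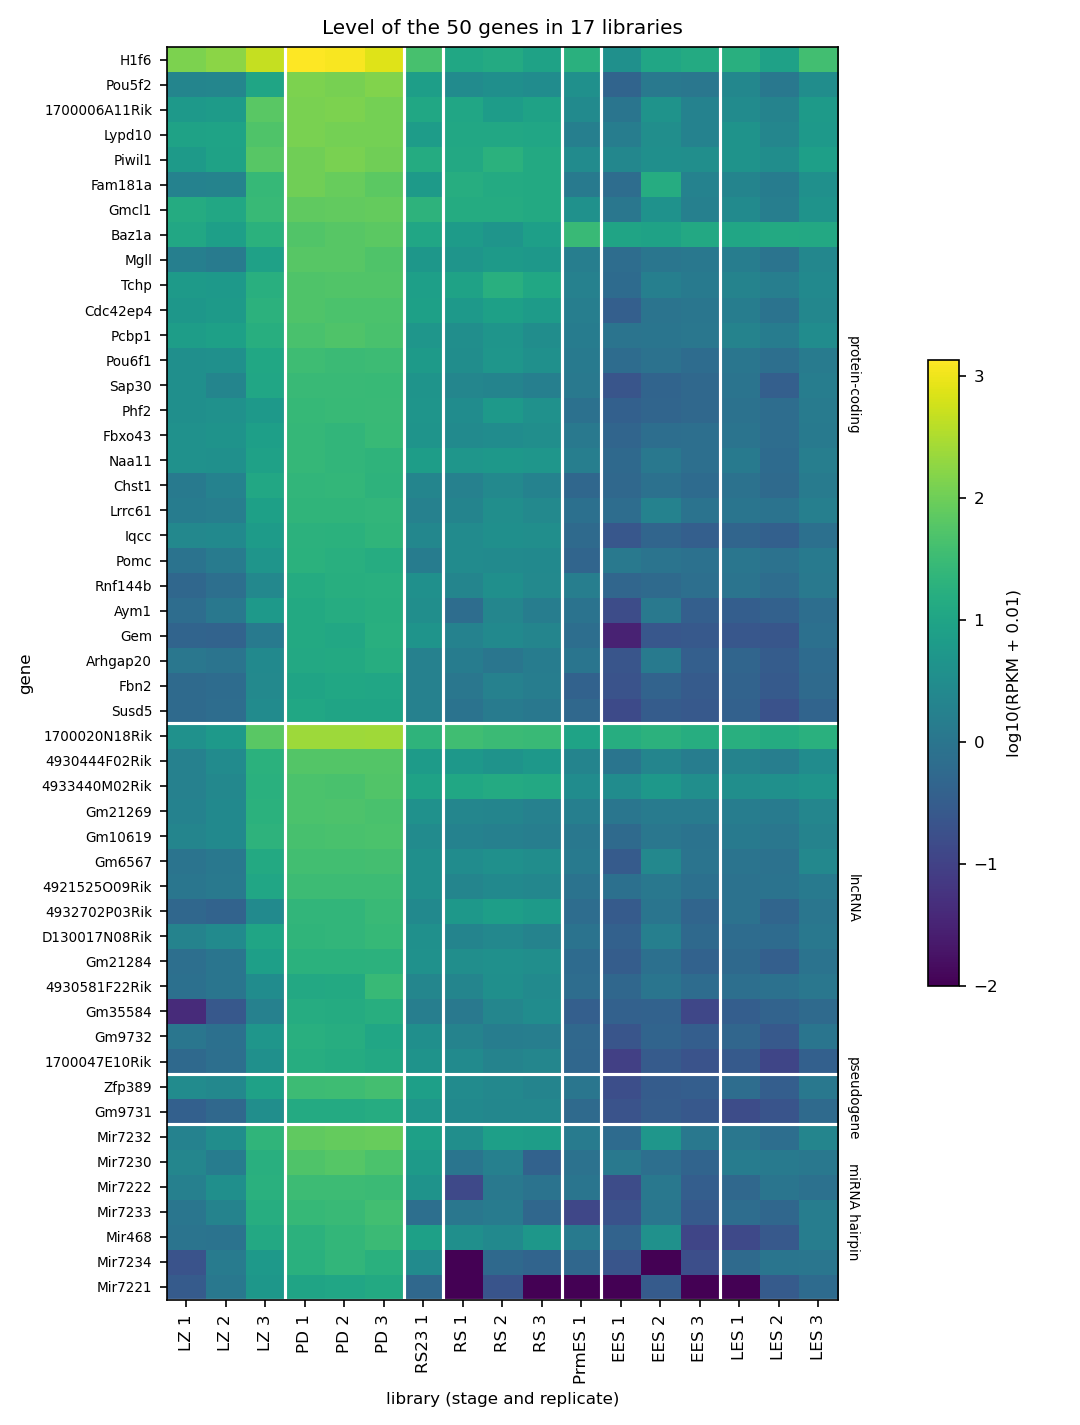
Each row is a gene and each column a library; colour gives the log10 of RPKM plus 0.01, and genes are grouped by type and ordered by their PD mean. The 3 PD columns are the brightest in all 50 rows, LZ replicate 3 is the brightest of the LZ columns in all 50, and H1f6, Baz1a and the lncRNA 1700020N18Rik remain above 8 RPKM in each LES library.

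The PD means ran from 10.2 RPKM (Susd5) to 1084 RPKM (H1f6), with a median of 30.3 RPKM; 6 genes were at 100 RPKM or more and 15 were under 20 RPKM. The ratio of the PD mean to the highest other stage ran from 4.004 to 26.4 with a median of 5.67, and was 8 or more in 5 genes and under 5 in 16. The highest other stage was LZ for 35 genes and RS for 15, and for none of the 50 was it EES or LES. The PD libraries agreed closely for most of the genes, with a median coefficient of variation of 8.84%, against 8.17% over all genes at 10 RPKM or more in PD. The lowest PD library lay above each of the 12 libraries of the other stages in 50 of 50 genes. The median level over the 50 genes was 4.97 RPKM in LZ, 30.3 in PD, 2.99 in RS, 0.775 in EES and 0.975 in LES.

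At the limit of 4 times lay 4933440M02Rik (4.004), 4932702P03Rik (4.011), Mir7222 (4.20) and H1f6 (4.22). Just outside it were Bcl2l12 (3.999), an inhibitor of cell death, Pld6 (3.94), a mitochondrial nuclease of the piRNA pathway, Sprtn (3.896), a protease for DNA-protein crosslinks, and Chchd5 (3.892). At the limit of 10 RPKM, Susd5 (10.2) and Fbn2 (10.6) were inside, and Gm6639 (9.51) and Rarres2 (9.43) outside. Ratios thus ran on without a gap across the limit of 4 times.

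LZ replicate 3 moved with all of these genes. It was the highest LZ library for 50 of 50 genes, against 63.7% of all genes tested, and it was at least 2 times the mean of LZ replicates 1 and 2 for 47 of 50, against 18.3%. The median ratio of LZ replicate 3 to the mean of the other LZ libraries was 5.60 for the 50 genes and 1.26 for all genes tested. The excess in LZ replicate 3 had a median of 25.4% of the PD mean and ran from 5.71% (Gem) to 49.0% (1700006A11Rik). Against LZ replicates 1 and 2 alone, PD was 6.03 to 108 times higher with a median of 16.98, compared with a median of 6.31 against all 3 LZ libraries. Applying the rule without LZ replicate 3 kept all 50 genes and added 23. The added genes include Cers3, a ceramide synthase (PD mean 92.5 RPKM), Tdrd1, a Tudor protein of the piRNA pathway (55.3 RPKM), and the hairpins Mir7242, Mir7229, Mir7215 and Mir7223. The part of the PD markers in LZ replicate 3 in these values was not tested.

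**Figure D2:**
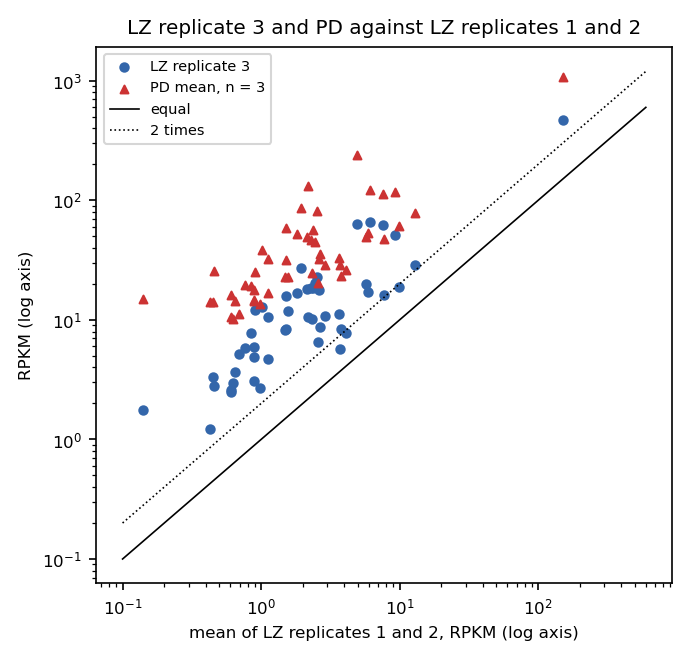
For each of the 50 genes the mean of LZ replicates 1 and 2 (x axis, RPKM, log scale) is set against LZ replicate 3 (blue circles) and the PD mean of 3 libraries (red triangles). In 47 of 50 genes the blue circle is on or above the dotted line of 2 times, and every red triangle is above its circle.

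Among chromatin genes, H1f6 dominated. H1f6 (Hist1h1t in GENCODE; chromosome 13, 23695811 to 23696545, + strand, GRCm38.p6, a gene of 1 exon) encodes the testis linker histone H1t, which is incorporated in pachytene spermatocytes. Its LZ libraries had 128, 173 and 469 RPKM, its PD libraries 1339, 1175 and 738 RPKM, its RS libraries 11.1, 13.53 and 8.79 RPKM, its EES libraries 3.74, 10.7 and 13.6 RPKM and its LES libraries 17.4, 8.50 and 36.8 RPKM. PD replicate 3 was the lowest PD library and LZ replicate 3 the highest LZ library, and PD and LZ still did not overlap. The ratio of the PD mean to the RS mean was 97.3, the highest of the protein-coding genes, while the ratio to LZ was 4.22. An opposite-strand assembled gene in its span averaged 255 RPKM in LZ, 388 RPKM in PD and 5.88 RPKM in RS. The same-strand model averaged 210, 890 and 9.19 RPKM in these stages. Whether reads of the opposite strand enter the value of H1f6 was not tested. H1f6 alone took 16.5%, 14.6% and 9.62% of the reads of the 50 genes in the PD libraries. H1f6 was the only member among 62 tested histone genes, a family whose median ratio of PD to the highest other stage was 0.0407. The 50 genes are 0.377% of all genes tested, so a count of 0 or 1 on a list of this size, here and in what follows, is near the background and says nothing about the 50.

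Baz1a (chromosome 12, 54892989 to 55014371, − strand) encodes ACF1, the large subunit of chromatin remodelling complexes with ISWI ATPases, and is required for normal mouse spermatogenesis. It had 11.97, 7.87 and 19.0 RPKM in LZ, 53.9, 61.8 and 67.5 in PD, 6.49, 4.79 and 7.90 in RS, 10, 9.12 and 12.7 in EES, and 11.0, 12.8 and 12.6 in LES. RS was its lowest stage, and all EES and LES libraries were above all RS libraries. A pair of opposite-strand assembled genes in its span were also highest in PD and lowest in RS, at 117 and 107 RPKM in PD, 11.7 and 11.9 RPKM in RS and 19.1 and 17.6 RPKM in EES, against 44.6, 4.71 and 7.73 RPKM for its same-strand model; whether their reads enter its value was not tested. Sap30, a subunit of the Sin3 histone deacetylase complex, averaged 29.1 RPKM in PD and Phf2, a histone H3K9 demethylase, 28.8 RPKM, each under 6 RPKM in every RS library and under 2 RPKM in every EES and LES library.

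Pou5f2 had the sharpest pattern. Pou5f2 (chromosome 13, 78024902 to 78026296, + strand, 1 exon, inside an intron of Fam172a) encodes a POU-domain transcription factor of male germ cells. Its libraries had 2.15, 2.24 and 10.5 RPKM in LZ, 131, 121 and 141 in PD, 3.03, 3.61 and 3.05 in RS, 0.444, 1.17 and 1.05 in EES, and 2.33, 1.13 and 3.26 in LES. The PD mean of 131 RPKM was 26.4 times the highest other stage, and 59.6 times the mean of LZ replicates 1 and 2. Its host gene Fam172a did not have this pattern, with 1.35 ± 0.214 RPKM in PD and 2.68 ± 0.359 RPKM in LZ (SD, n = 3 each). No exon of a same-strand assembled gene was found in the span of Pou5f2, so no assembled model carries its pattern. The assembled gene that runs across it averaged 1.70 RPKM in PD and 3.41 RPKM in LZ. Pou6f1, another POU-domain factor, averaged 32.7 RPKM in PD and 3.96 RPKM in RS. Of 35 tested genes on a list of regulators of transcription in spermatocytes, 8 were highest in PD and Pou5f2 was the only member. Over all 13260 genes tested 2869 were highest in PD, so the 8 of 35 is near the background. Mybl1, on the list as the gene of A-MYB, averaged 27.2 ± 1.86 RPKM in PD and 25.4 ± 7.12 RPKM in LZ.

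Of the piRNA pathway list, Piwil1 met the rule. Piwil1 (chromosome 5, 128736071 to 128755474, + strand) encodes MIWI, which binds pachytene piRNAs and cleaves RNA. Its libraries had 6.16, 9.06 and 62.5 RPKM in LZ, 106, 127 and 104 in PD, 12.56, 19.02 and 13 in RS, 2.32, 3.63 and 3.43 in EES, and 4.20, 3.19 and 7.78 in LES. Its PD mean was 4.33 times the LZ mean and 14.8 times the mean of LZ replicates 1 and 2. Of 25 tested genes on the piRNA list, 9 were highest in PD and 4 of these were at least 2 times every other stage: Piwil1, Pld6 (54.3 RPKM in PD, ratio 3.94), Tdrd5 (33.6 RPKM, ratio 2.26) and Henmt1 (22.3 RPKM, ratio 2.13), the methyltransferase that modifies the ends of piRNAs. Over all 13260 genes tested, 2869 were highest in PD and 506 were at least 2 times every other stage. The median ratio of PD to the highest other stage on the list was 0.806, against 0.469 over all genes tested. Pcbp1, an RNA-binding protein for C-rich sequences encoded by a gene of 1 exon on chromosome 6, averaged 47.9 RPKM in PD and 10.5 RPKM in LZ.

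Of the genes of cell division, Fbxo43 encodes EMI2, an inhibitor of the anaphase-promoting complex needed for mouse meiosis. It had 3.97, 4.28 and 7.80 RPKM in LZ, 26.4, 23.2 and 28.6 in PD, and 2.88, 3.17 and 3.35 in RS. It was the only member among 63 tested genes of a meiotic division list, of which 22 were highest in PD and 2 were at least 2 times every other stage, the other being the cytokinesis regulator Prc1 (43.3 RPKM in PD, ratio 2.33). Of all 13260 genes tested, 2869 were highest in PD and 506 were at least 2 times every other stage, so the 2 of 63 is near the background. Rnf144b, a ubiquitin ligase, averaged 16.1 RPKM in PD. Gmcl1, a homologue of the Drosophila germ cell-less gene and a BTB-domain protein, averaged 78.5 RPKM in PD, 18.2 RPKM in LZ and 13.9 RPKM in RS. No member came from the lists of recombination (35 genes tested), synaptonemal complex and cohesin (27), germ-cell RNA binding and translation (36), ubiquitin and proteasome (36), glycolysis and energy isoforms (26) or axoneme and flagellum (48).

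The other protein-coding genes have varied roles. Mgll, the lipase that breaks down monoacylglycerols and the endocannabinoid 2-AG, had 63.1, 61.3 and 51.5 RPKM in PD, against at most 8.42 RPKM in any other library of the 5 stages, and a PD to highest other ratio of 10.8. Small GTPase signalling was represented by Cdc42ep4, a CDC42 effector (PD 49.0 RPKM, ratio 4.69), and Gem, a GTPase of the RGK family (14.1 RPKM, ratio 6.37). Tchp encodes trichoplein, a keratin-binding centrosomal protein, and its PD libraries had 52.3, 53.4 and 53.4 RPKM. Naa11, an autosomal N-terminal acetyltransferase, averaged 23.5 RPKM in PD, where its X-linked paralogue Naa10 was at 0.00118 ± 0.00204 RPKM, and in LZ Naa10 was at 0.436 ± 0.173 RPKM. Fbn2, an extracellular fibrillin, and Pomc, the precursor of several peptide hormones, averaged 10.6 and 16.9 RPKM in PD. Their same-strand assembled genes cover only part of each span. For Fbn2 this is 58008420 to 58074369 of 58008623 to 58210572, and for Pomc 3959217 to 3960987 of 3954945 to 3960643. The levels thus do not show a full-length transcript of either gene. Lypd10, of the Ly6 family, averaged 118 RPKM and Chst1, a keratan sulphate sulphotransferase, 23.0 RPKM. Fam181a averaged 86.3 RPKM, and Lrrc61 and Iqcc 22.9 and 20.6 RPKM. Of the 50 genes, 0 are on the X or Y chromosome, where 3.97% and 0.264% of the genes tested lie, and the most are on chromosomes 6 (8 genes, with 4.56% of the genes tested) and 13 (7 genes, with 3.89%), where 2 of the 8 on chromosome 6, Mir7232 and Mir468, lie in 1 assembled gene.

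**Figure D3:**
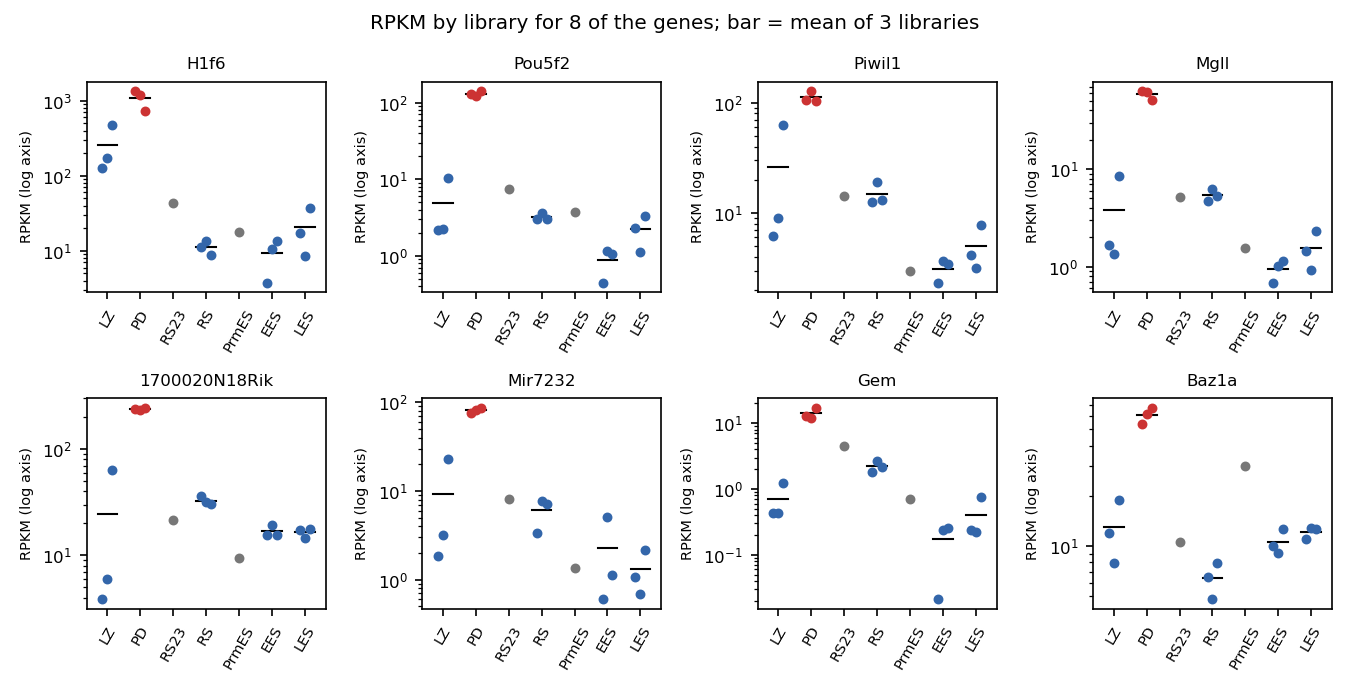
RPKM on log axes for 8 of the genes, with a point for each library and a bar at the mean of 3 libraries; PD is red and the single libraries RS23 and PrmES are grey. All PD points are above all other points in each panel, the third LZ point is the highest LZ point, and Baz1a is lowest in RS with PrmES at 30.04 RPKM.

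Among the lncRNAs, 1700020N18Rik (chromosome 1, 91404879 to 91406029, − strand) was the second most abundant of all 50 genes. It had 3.85, 6.00 and 63.9 RPKM in LZ, 237, 235 and 246 in PD, 35.9, 31.6 and 30.2 in RS, 15.5, 19.3 and 15.6 in EES, and 17.3, 14.6 and 17.9 in LES. Its PD libraries differed little, with a coefficient of variation of 2.48%, and its LES level remained above that of LZ replicates 1 and 2. The 14 lncRNAs ran from 14.3 to 239 RPKM in PD with a median of 28.9, close to the median of 29.1 for the 27 protein-coding genes. Both types had similar median ratios of PD to RS, 8.01 for lncRNAs and 8.32 for protein-coding genes, whereas the 7 hairpins had a median of 44.3. In 4930581F22Rik a single library raised the PD mean: the gene had 12.2, 13.1 and 28.4 RPKM in PD, a coefficient of variation of 50.9%. The pseudogenes Zfp389 and Gm9731 averaged 35.7 and 14.02 RPKM in PD.

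The hairpins ranged from 11.3 RPKM (Mir7221) to 81.4 RPKM (Mir7232) in PD and were low in RS. Mir7232, whose mature sequences are shown above, had 1.82, 3.20 and 23.0 RPKM in LZ, 75.0, 81.9 and 87.3 in PD and 3.38, 7.65 and 7.04 in RS. These values rest on 611, 742 and 887 reads in PD and 27, 78 and 69 reads in RS. Mir7221 rests on 79, 96 and 128 reads in PD and on 0, 2 and 0 reads in RS, so its ratio of PD to RS is poorly fixed. Mir7234 had 103, 148 and 128 reads in PD and 0, 4 and 3 in RS.

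Most hairpins lay in or beside a longer transcript with the same pattern. Mir7232 and Mir468 lie 936 bases apart on the − strand of chromosome 6, both within exons of a single assembled gene (81891795 to 81911793, GRCm38) that averaged 50.1 RPKM in PD and 9.14, 5.38, 2.11 and 2.00 RPKM in LZ, RS, EES and LES. Mir7233 is in an exon of an assembled gene on the same strand with 47.3 RPKM in PD, and Mir7230 in exons of a pair of overlapping assembled genes with 24.6 and 40.2 RPKM. On chromosome 2, Mir7221, Mir7222 and Chst1 follow each other on the + strand with gaps of 2325 and 4956 bases. Neither of these 2 hairpins is in an assembled exon; Mir7222 lies 3257 bases upstream of the assembled gene of Chst1, which averaged 19.7 RPKM in PD. On chromosome 7, Mir7234 lies between Gm10619 on the other strand and Gm21269 on its own, with gaps of 3087 and 6283 bases in RefSeq, though in GENCODE M21 it overlaps an exon of Gm21269; all 3 are among the 50 genes. Mir7230 and Aym1 lie 19649 bases apart on chromosome 5.

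The deposited assembly of transcripts gives a separate set of gene models from the same reads. An assembled gene with an exon in the span of the gene, on the same strand, was found for 43 of the 50, and Pou5f2 was not among these. Where there were several, the one with the highest PD level was taken, and in 37 of the 43 it was at least 4 times every other stage, a rule that 98 of all 27289 assembled genes met. The reads are those that chose the 50 genes, so this count is a description. Opposite-strand assembled genes lay over 25 of the 50, and 24 of these 31 assembled genes were highest in PD. In GENCODE M21, 17 of the 50 genes have exons of a gene on the opposite strand within their span, 6 of them with a protein-coding partner. The shares over all genes were not computed for these counts, so they are not read as a trait of the 50. Whether reads were counted by strand is not given in the sources used here, so reads of such pairs cannot be told apart. The lncRNA 4932702P03Rik averaged 25.4 RPKM in PD, against 2.78 RPKM for its partner Aldh5a1, and Lrrc61 22.9 RPKM, against 9.43 RPKM for Rarres2. Other partners were closer in level. Iqcc averaged 20.6 RPKM in PD, against 14.2 RPKM for Tmem234. The same-strand assembled gene over Iqcc, which reaches beyond its span, was only 1.16 times its highest other stage in PD. It averaged 8.08 RPKM in PD and 6.97 RPKM in LZ. 4930581F22Rik averaged 17.9 RPKM in PD, against 12.2 RPKM for Dcps, and in RS it was at 2.83 RPKM, below the 9.57 RPKM of Dcps.

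The levels in RS and LZ were compared with limma over the 15 libraries, since the rule sets no direction between them. It does keep both stage means at or under the PD mean divided by 4, which removes genes that are high in either, so the shares of all genes are given as background and nothing is read from a lower share among the 50. A gene was called when it changed at least 2-fold with an adjusted p under 0.05 (Benjamini-Hochberg, over the 13260 genes tested); fold changes are of RPKM plus 0.01. In RS against LZ, 5 of the 50 genes were higher (10%, against 34.3% of all genes tested) and 6 were lower (12%, against 33.1%), and 39 were not called. All RS libraries lay above all LZ libraries for 2 genes (42.3% of all genes tested) and below them for 6 (41.7%). The median log2 fold change of the 50 was −0.06, against 0.08 over all genes. These counts rest on LZ replicate 3: without it 18 were higher (35.7% of all genes) and 3 lower (31.5%). Without LZ replicate 1 the count of higher genes was 1, without LZ replicate 2 it was 2, and without RS replicates 1, 2 and 3 it was 3, 2 and 2; over all genes this share stayed at 31.6% to 35.7% when a library was left out. Mir7221 is the gene of the 50 that passed the filter on low values only through its PD libraries, and among the other 49 genes 5 were higher and 5 lower.

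The 5 genes that rose in RS relative to LZ were 3 lncRNAs and 2 protein-coding genes. Gm35584 averaged 2.17 ± 0.975 RPKM in RS and 0.686 ± 0.952 RPKM in LZ (each SD over 3 libraries, here and in what follows), a log2 fold change of 2.91 ± 0.97 (SE) with an adjusted p of 0.0153 in limma. An opposite-strand assembled gene in its span averaged 9.01 RPKM in RS and 0.553 RPKM in LZ, and the same-strand one 1.11 RPKM in RS and 0.300 RPKM in LZ; the strand of the reads behind Gm35584 cannot be told apart. 4932702P03Rik had 5.45, 7.36 and 6.21 RPKM in RS, against 0.497, 0.423 and 2.82 RPKM in LZ, a log2 fold change of 2.89 ± 0.62 (limma, adjusted p = 0.000855), and it was the only one of the 5 called in all 16 alternatives run. Gem (log2 fold change 1.82), 4933440M02Rik (1.5) and Rnf144b (1.47) were called with adjusted p of 0.0377, 0.0405 and 0.0123 in limma. 1700020N18Rik was not called, at 32.6 ± 2.97 RPKM in RS and 24.6 RPKM in LZ. Without LZ replicate 3 its log2 fold change was 2.75 ± 0.20 (limma, adjusted p = 2.23e-07).

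H1f6, Pcbp1, 3 hairpins and Gm10619 fell in RS relative to LZ. H1f6 averaged 11.1 ± 2.37 RPKM in RS and 256 ± 185 RPKM in LZ, a log2 fold change of −4.31 ± 0.60 (limma, adjusted p = 2.28e-05), and without LZ replicate 3 it was −3.76. The opposite-strand assembled gene in its span averaged 5.88 RPKM in RS and 255 RPKM in LZ, and reads of the 2 strands cannot be told apart. Pcbp1 averaged 3.83 ± 0.826 RPKM in RS and 10.5 ± 4.89 RPKM in LZ (log2 fold change −1.38, limma, adjusted p = 0.00177). Mir7222 had 0.124, 1.16 and 0.905 RPKM in RS, against 1.66, 3.56 and 17.9 RPKM in LZ (log2 fold change −3.18, limma, adjusted p = 0.00717). H1f6, Pcbp1 and Mir7222 were called in all 16 alternatives. Mir7230 (log2 fold change −2.09, adjusted p = 0.022 in limma) and Gm10619 (−1.54, adjusted p = 0.0376) were not called without LZ replicate 3. Mir7221, which entered the test through its PD libraries, was called on 2 reads in RS, against 47 reads in LZ; scaled to depth this is a ratio of 0.0334 (95% exact binomial interval 0.00393 to 0.127, counting error only), and without LZ replicate 3 it was not called.

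**Figure D4:**
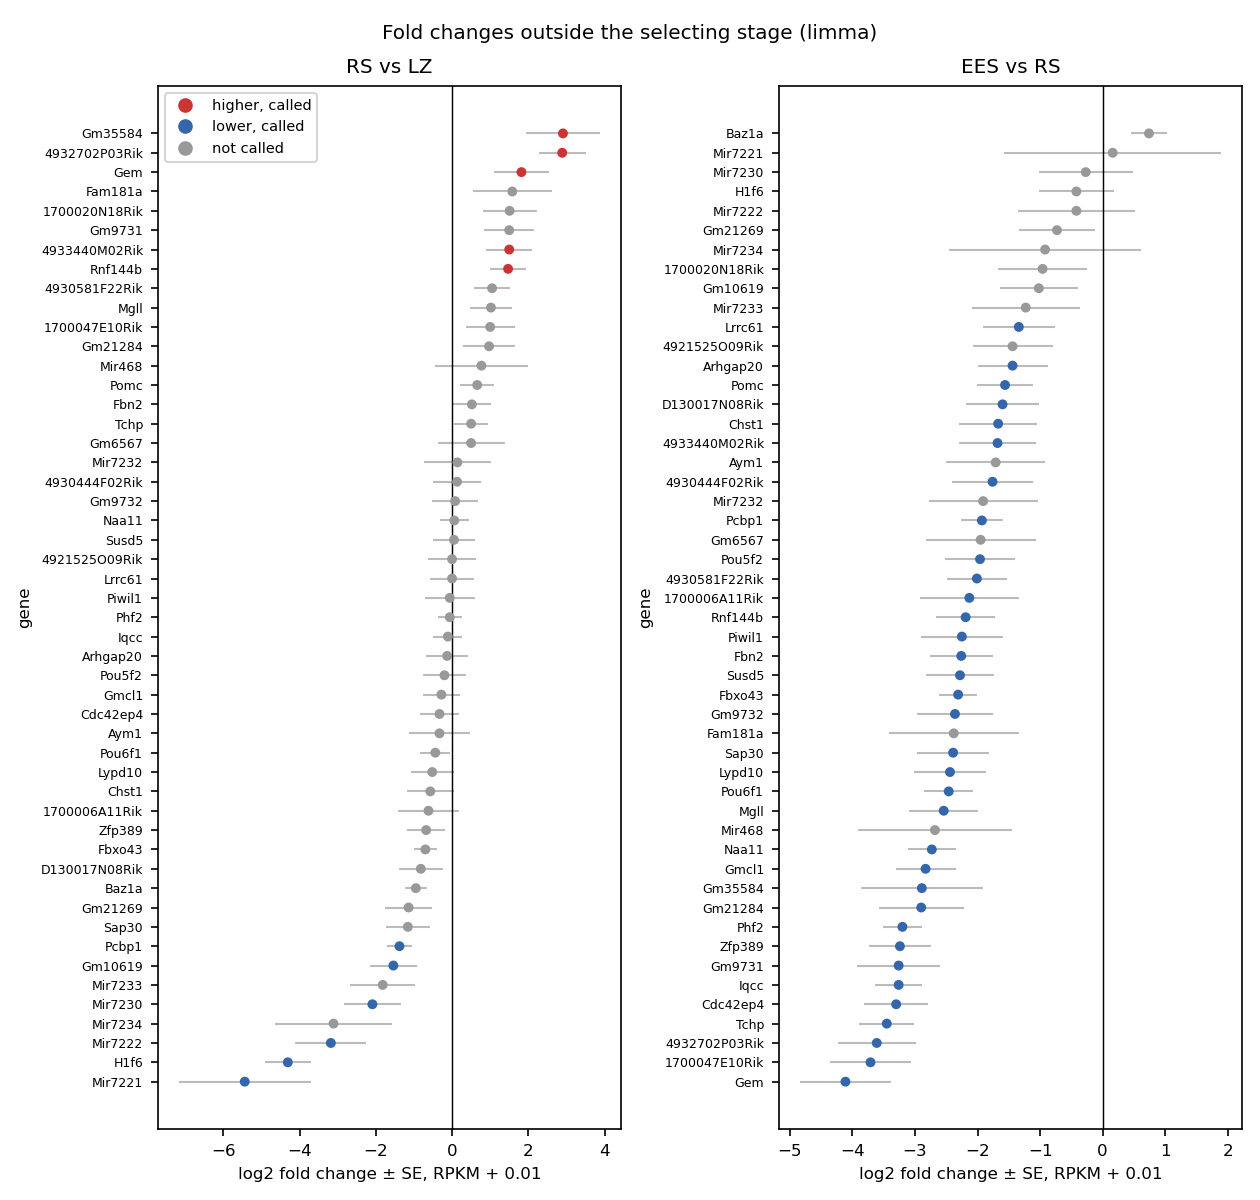
log2 fold changes with SE from limma for the 50 genes in RS against LZ (left) and EES against RS (right), on RPKM plus 0.01; red marks genes called higher, blue genes called lower and grey genes not called. On the left 5 are red and 6 blue; the sparsely read Mir7221 is among the 6; on the right 34 are blue and Baz1a is at the top at 0.74.

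In EES relative to RS, 34 of the 50 genes fell (68.0%, against 54.9% of all genes tested) and 0 rose (15.8% of all genes tested). At an unadjusted p under 0.05 in limma 1 was higher, by less than 2-fold. The rule also limits the RS and EES means to the PD mean divided by 4, so a gene high in either could not be among the 50. Nothing is therefore read from the 0, from the share called lower or from the median change. The median log2 fold change was −2.16, against −1.42 over all genes. All EES libraries lay below all RS libraries for 38 of the 50 genes (57.2% of all genes tested) and above them for 1 (19.1%). By type, 23 of the 27 protein-coding genes, 9 of the 14 lncRNAs, both pseudogenes and 0 of the 7 hairpins were called lower. Shares by type over all genes were not computed, so nothing is read from this split. Without EES replicate 2 the hairpins Mir7232, Mir468 and Mir7233 were called lower (log2 fold changes −2.78, −4.04 and −1.95) and the other hairpins were not. These counts depended on scaling: with each library centred on its median gene, which moves the median change of all genes to 0.02, 13 of the 50 were lower (28.0% of all genes tested) and 1 higher (32.5%). With quantile normalization 11 were lower (31.8%) and 1 higher (25.5%). The share of the 50 genes called lower was above that of all genes on the deposited scale and below it under both of these scalings. Because of the limits of the rule, neither is read as a trait of the 50. The 11 genes called lower in all 16 alternatives were Gem, 1700047E10Rik, 4932702P03Rik, Tchp, Cdc42ep4, Gm9731, Iqcc, Zfp389, Phf2, Gmcl1 and Naa11.

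Gem fell the most, to 0.0210, 0.235 and 0.259 RPKM in EES, against 1.84, 2.67 and 2.13 RPKM in RS, a log2 fold change of −4.11 ± 0.73 (limma, adjusted p = 0.000209). Its EES libraries rest on 4, 48 and 66 reads. Tchp averaged 1.17 ± 0.520 RPKM in EES and 12.4 ± 4.35 RPKM in RS (log2 fold change −3.45, limma, adjusted p = 1.45e-05). Piwil1 averaged 3.13 ± 0.708 RPKM in EES and 14.9 ± 3.61 RPKM in RS (log2 fold change −2.25, limma, adjusted p = 0.00634), and under median centring it was not called. Pou5f2 averaged 0.889 ± 0.390 RPKM in EES and 3.23 ± 0.331 RPKM in RS (log2 fold change −1.96, limma, adjusted p = 0.00633), likewise not called under median centring. Lrrc61, with the smallest called change (log2 fold change −1.34, limma, adjusted p = 0.0473), turned to 0.10 under median centring.

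Genes not called in this comparison included the highest and the sparsest. H1f6 had overlapping libraries, at 3.74 to 13.6 RPKM in EES and 8.79 to 13.53 RPKM in RS. 1700020N18Rik averaged 16.8 ± 2.19 RPKM in EES and 32.6 ± 2.97 RPKM in RS, with no overlap. Its log2 fold change of −0.96 ± 0.71 (limma, adjusted p = 0.234) was under the 2-fold limit. The SE uses a spread shared by all 15 libraries, and the LZ values of this gene lay far apart, at 3.85, 6.00 and 63.9 RPKM. Over the 16 alternatives the adjusted p in limma ran from 0.000101 to 0.769, and 1 of them called the gene lower. Baz1a was the gene with all EES libraries above all RS libraries, at 10.6 ± 1.84 RPKM in EES and 6.39 ± 1.56 RPKM in RS. Its log2 fold change of 0.74 ± 0.29 (limma, adjusted p = 0.0332) was under the 2-fold limit; under median centring it was 2.19 (adjusted p = 0.000133), and it was positive in all 16 alternatives. Of the hairpins, Mir7221 rests on 2 reads in EES and 2 in RS, and Mir7234 on 2 reads in EES and 7 in RS, so a change was not detectable at this depth.

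EES replicate 2, which stood apart in round spermatid markers, was the highest EES library for 36 of the 50 genes, against 68.3% of all genes tested. Without it 41 genes were lower in EES than in RS (60.2% of all genes tested) and 0 higher (15.5%), all 34 among them. Fam181a had 14.7 RPKM in EES replicate 2, against 0.668 and 1.91 RPKM in EES replicates 1 and 3, and it was called lower without that library (log2 fold change −3.61, limma, adjusted p = 0.00202) but not with it (SE 1.04 in the comparison of all libraries). An opposite-strand assembled gene with an exon in the span of Fam181a averaged 13.4 RPKM in EES, its highest stage, against 4.03 RPKM in RS, and the same-strand assembled gene 2.15 RPKM in EES, against 5.26 RPKM in RS; reads of the 2 strands cannot be told apart in the value of Fam181a. With LZ replicate 3 and EES replicate 2 both left out, 43 were lower (60.3% of all genes) and 0 higher (15.5%) in EES against RS, and 20 were higher (38%) and 4 lower (33.2%) in RS against LZ.

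The RS23 library has no replicate, so its levels are set beside the RS mean with no test. It was past 2-fold above the RS mean for 12 of the 50 genes (11% of all genes) and past 2-fold below it for 2 (16.5%), and its median ratio to RS was 1.37, against 0.893 over all genes. It lay above all 3 RS libraries for 31 of the 50 genes, against 32.8% of all genes. H1f6 had 43.5 RPKM in RS23, against 11.1, 13.53 and 8.79 RPKM in RS, a ratio of 3.91. Zfp389 had 7.76 RPKM in RS23 and 2.502 RPKM in RS, and Pou5f2 7.55 RPKM in RS23 and 3.23 RPKM in RS. The highest ratios were those of hairpins on few reads. Mir7234 had 24 reads in RS23, against 7 in the 3 RS libraries, a depth-scaled ratio of 8.15 (95% interval 3.41 to 22.4). Mir7230 had 55 reads in RS23 and 22 in RS (5.94, interval 3.56 to 10.2), Mir7222 52 and 22 (5.62, interval 3.35 to 9.71), and Mir7221 6 and 2 (7.13, interval 1.27 to 72.2). The genes past 2-fold below were 4932702P03Rik, at 2.73 RPKM in RS23 and 6.34 RPKM in RS, and Fam181a, at 6.25 RPKM in RS23 and 13.9 RPKM in RS; Pomc was next at 1.44 RPKM in RS23 and 2.85 RPKM in RS. The PD markers summed to 988 RPKM and the LZ markers to 15.4 RPKM in RS23, against 1055 to 1193 and 18.5 to 23.6 RPKM in RS, the elongating spermatid markers to 248 RPKM in RS23, against 739 to 1557 RPKM in RS, and Sertoli markers to 9.07 RPKM in RS23, against 2.18 to 2.76 RPKM in RS; their part in the ratios was not tested. The deposited gene table heads the columns of RS23 and PrmES with another surname than those of the 15 stage libraries. Age, staining, source and library cannot be told apart.

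**Figure D5:**
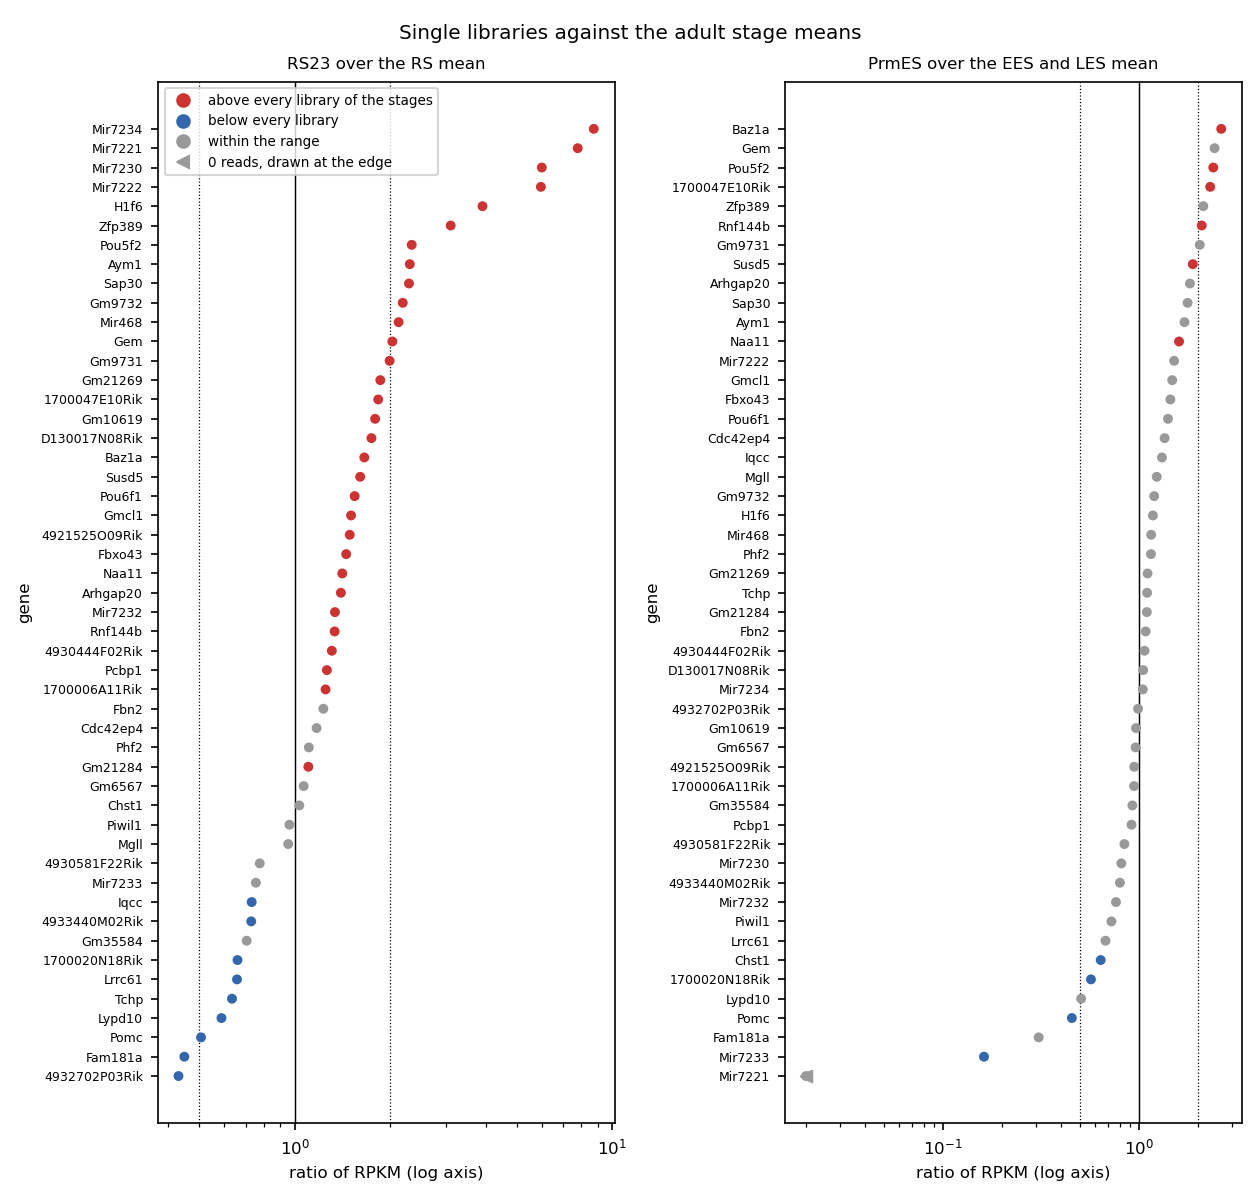
Ratio of RPKM in the single RS23 library to the RS mean (left) and in the single PrmES library to the mean of the EES and LES stages (right), on log axes; red marks genes above every library of those stages and blue genes below, with dotted lines at 2-fold. On the left 31 genes are red and hairpins hold the top 4 places; on the right 6 are red, led by Baz1a, and Mir7221 with 0 reads is drawn at the left edge.

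The PrmES library, also single, was past 2-fold above the mean of EES and LES for 7 of the 50 genes (14.6% of all genes) and past 2-fold below it for 4 (12.3%). Its median ratio was 1.10, against 1.07 over all genes, and it lay above all EES and LES libraries for 6 of the 50 genes, against 24.6% of all genes. These shares were no higher than the background. Baz1a had 30.04 RPKM in PrmES, against 9.12 to 12.7 RPKM in EES and 11.0 to 12.8 RPKM in LES. Pou5f2 had 3.77 RPKM in PrmES, against at most 3.26 RPKM in the EES and LES libraries, and 1700020N18Rik 9.53 RPKM in PrmES, against at least 14.6 RPKM in those.

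Promoters were taken from the RefSeq table of GRCm38.p6, which gives 250 bases before and 50 after the start of a gene and holds 33 of the 50 genes. In 7 of the 33, Piwil1 among them, the start used by the table lies inside the annotated span of the gene, by 17 to 3993 bases. Motifs were searched on both strands. The MYB element AACNGNC was in 14 of 33 promoters (42.4%), against 35.1% of the promoters of genes tested and 42.8% of those of genes at 10 RPKM or more in PD. The shorter MYB core CNGTTA, which can overlap the element, was in 12 of 33 (36.4%), against 21% and 24.2%. The full cAMP response element TGACGTCA was in 0 of 33 (3.42% of genes tested), the E-box CACGTG in 4 (12.1%, against 10.2%) and the CCAAT box in 9 (27.3%, against 39.9%). Median CpG counts were 18 in the protein-coding and 5 in the lncRNA promoters among the 50 genes, against 20 over genes tested of all types. Counts by type over genes tested were not computed, so nothing is read from this split. A match says only that these letters are in the window.

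The 250 bases before the start are shown, 5′ to 3′ with MYB matches in capitals, for Pou5f2, the gene with the sharpest pattern (chr13:78024652-78024901, + strand), for 4933440M02Rik, the member with the most MYB core matches (chr7:125349787-125350036, − strand), and for H1f6, the most abundant gene, which had no match (chr13:23695561-23695810, + strand). Pou5f2 holds 2 MYB elements, and 4933440M02Rik 2 elements and 5 cores, 4 of the cores within 72 bases before the start on the opposite strand.
Pou5f2: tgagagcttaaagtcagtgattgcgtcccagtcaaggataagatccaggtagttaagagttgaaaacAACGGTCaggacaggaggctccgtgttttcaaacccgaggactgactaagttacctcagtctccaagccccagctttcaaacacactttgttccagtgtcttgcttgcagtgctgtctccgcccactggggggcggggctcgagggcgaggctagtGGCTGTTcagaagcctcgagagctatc
4933440M02Rik: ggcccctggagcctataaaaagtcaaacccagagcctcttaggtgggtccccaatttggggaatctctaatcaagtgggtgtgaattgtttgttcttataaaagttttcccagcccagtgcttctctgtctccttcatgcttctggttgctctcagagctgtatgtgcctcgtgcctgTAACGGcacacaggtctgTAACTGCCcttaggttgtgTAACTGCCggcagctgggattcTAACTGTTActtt
H1f6: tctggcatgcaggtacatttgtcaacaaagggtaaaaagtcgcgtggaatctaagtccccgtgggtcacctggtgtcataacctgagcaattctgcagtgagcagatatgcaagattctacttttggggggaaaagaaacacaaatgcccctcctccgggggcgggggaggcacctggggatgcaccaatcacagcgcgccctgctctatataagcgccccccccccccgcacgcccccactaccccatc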

How the data were processed

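The measurements are RNA levels in 17 sequencing libraries of sorted mouse testis cells. Trim Galore and STAR, and the builds GRCm38 and mm10, are named per the submitters' processing notes without role or version; strand and counting program were not given in the sources used here. Values deposited by the authors are log2 values of RPKM, whose steps have the form log2(100 × RPKM + 1) (found from the values), so RPKM was recovered by the inverse and the pseudocount is 0.01 RPKM. The values fell on whole reads for 100% of rows in both tables (tolerance 0.01 read), which gave the depths and the exon lengths. Positions in the deposited transcript annotation were made by the authors with StringTie 1.3.4d, per the file headers. Gene types and positions are from RefSeq GRCm38.p6 (24570 of 24594 genes matched), and overlaps from GENCODE M21.

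Genes at 1 RPKM in at least 3 of 15 libraries were tested (13260) in limma 3.58.1 (R 4.3.3) with all 15 libraries and a mean-variance trend. All 50 genes passed this filter, 49 of them also without the PD libraries (Mir7221 did not). RS was compared with LZ and EES with RS; comparisons with PD chose the genes and got no test. On simulated data of 13260 genes, 87.5% of 200 seeded changes of 3 on the log2 scale were recovered for RS against LZ. There were 8 false calls among the genes not seeded. The simulated RS and LZ means were equal for these, whereas in the data 34.3% of genes were called higher and 33.1% lower. The simulated noise was equal in all stages and independent between genes. These figures therefore do not cover a library that deviates for many genes together, such as LZ replicate 3. Replicate numbers were not treated as pairs, since the labels do not say whether they pair the samples. Alternatives were other pseudocounts, scalings, filters and variance models, and leaving out libraries. Genes named are the highest in PD, the highest in ratio, those at the limits of the rule, those on role lists, and the extremes of each comparison, where clone-based names (16 of the 50) were passed over unless no other was left; others, such as those placed by function, were named after their values were seen. The genes, lists and tests were chosen with earlier results of these data known. Intervals cover counting error only. The values of 1 of the 50 genes that the naming rule covers are not reported here.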

Additional observations from a re-analysis of the deposited data

How the results depend on the processing

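The 50 genes depend on the limits: at least 3 times each other stage gave 102 genes and at least 8 times gave 5, without the RS limit 635 met the rule and without the LZ limit 180, and leaving out each library in turn gave 35 to 73. The other settings gave 35 to 72 genes, of which quantile normalization shared 40 and scaling to reads in genes 38 with the 50. For RS against LZ, 5 genes higher became 3 with a pseudocount of 1 RPKM, 3 with no filter, 2 when scaled to reads in genes, 10 with median centring, 11 with quantile normalization, 20 without LZ replicate 3 and EES replicate 2 together (chosen after seeing the data), and 1 to 18 without each library in turn. The 6 lower became 14 when scaled to reads in genes and 3 to 9 without each library in turn. For EES against RS, 0 higher became 1 with median centring and 1 with quantile normalization (32.5% and 25.5% of all genes). It stayed at 0 without each library in turn (15.1% to 16.0%). The 34 lower became 13 and 11 with these scalings (28.0% and 31.8% of all genes, which is above the share of the 50). Without each library in turn 27 to 41 were lower (50% to 60.2% of all genes). Centring each library moves the median change of all genes from 0.08 to 0.3 on the log2 scale for RS against LZ, and from -1.42 to 0.02 for EES against RS. The cause was not tested. Same-numbered samples correlated at -0.12 to 0.08 in their deviations. With 3 libraries a stage, these correlations cannot tell whether the numbers pair the samples. With a replicate block 7 were higher (34.2% of all genes) and 6 lower (32.8%) in RS against LZ. In EES against RS the block gave 0 higher (15.8%) and 37 lower (54.8%). With only the libraries of the 2 stages compared, 4 were higher (35.9% of all genes) and 4 lower (34.4%) in RS against LZ. In EES against RS this setting gave 0 higher (15.4%) and 35 lower (50.6%). Hairpins with under 10 reads in a stage (Mir7221, Mir7233 and Mir7234) limit what can be said of them.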
